A study of Ambystoma mexicanum with 12 samples.

Results

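In blastemas of the regenerating axolotl forelimb, a set of genes differed several-fold between pools of the same group. The 200 most variable genes, of 99081 identifiers in the table, are described here with the way they moved together across pools. An identifier was considered if it carried the prefix AMEX60DD without the letter U after it and had at least 10 estimated counts in all 12 libraries, which 12684 did. Levels were taken as log2(CPM + 0.5), where CPM is the count scaled to a common library total of 1000000. The 150 identifiers of highest mean level and 1262 further identifiers whose 4 group means spanned 1 or more on that log2 scale were set aside. Of the 11272 left, the members are the 200 with the largest SD between pools of a group, pooled over the 4 groups. The members were thus chosen by their group means and their spread between pools, so both are given as descriptions, without a test.

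The libraries were made from blastemas of axolotls (Ambystoma mexicanum) of the White (d/d) genotype, 3 months old and 5 cm long, collected 14 days after amputation. The 4 groups held 3 libraries each: proximal blastemas (cut through the upper humerus) under the solvent dimethyl sulfoxide (DMSO), and distal blastemas (cut through the carpus) under DMSO, 0.1 uM talarozole (TAL) or 1 uM TAL. Every library pooled 3 blastemas, and all animals were kept in dosed water from day 4 for 7 days, the controls with DMSO. The design bears on the proximodistal identity that cells take on when their own retinoic acid is kept from breakdown, since talarozole inhibits the CYP26 enzymes that degrade it.

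A blastema is a mound of proliferating cells under a specialised wound epidermis. It holds connective tissue cells that carry positional identity, muscle progenitors, Schwann cells and nerve fibres, vessels and immune cells, in proportions that shift as it grows from a cone to a flattened paddle. Pools taken at one time can therefore differ in stage and in cell makeup, and in bulk samples fewer cells of a type and less RNA per cell cannot be told apart. Genes that move together across pools of one group are a way to see such differences without reference to the treatment.

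The table does not pair its identifiers with gene names, and 0 of them matched the RefSeq gene list of the assembly UKY_AmexF1_1. The members are therefore named by identifier, and neither their functions nor cell type markers could be read. Total estimated counts ranged from 8409618 to 13937318 per library, and the members together took 0.248 to 0.381% of them. Pools of one group were separate samples in the titles, and the 12 pairs of such pools differed by 14.9 to 108 chi-square units per degree of freedom, far above sampling noise. The titles do not say whether replicates came from separate tanks or days.

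The pooled SD of the members between pools of a group ranged from 0.72 to 1.504 on the log2 scale, with a median of 0.81. The other 11072 eligible identifiers had a median of 0.30. In the group where a member varied most, its highest pool was 3.24 to 22.2-fold above its lowest, with a median of 5.77-fold. Near the limit, AMEX60DD026577 was the last member with an SD of 0.7168 and AMEX60DD038514 the first identifier outside with 0.7165, so the limit cuts through a continuous range. The spans of the members' group means were 0.08 to 1.00, with a median of 0.70, against 0.40 for the other eligible identifiers.

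The members had mean counts of 25.6 to 1786 per library, with a median of 83.9, against 98.1 for the other eligible identifiers. Of the members, 93 (46.5%) had under 20 counts in at least 1 library, against 19.5% of the others. The SD that Poisson counting alone would give had a median of 0.17 over the members and was at most 0.26. Since the members were chosen by large SD, their ratio to it is a description: the observed SD was more than 3 times the counting SD for 199 of 200 members, and for 30.8% of the other eligible identifiers. The deposited values are not whole reads, so this counting SD is approximate, and it leaves out every other source of error.

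**Figure D1:**
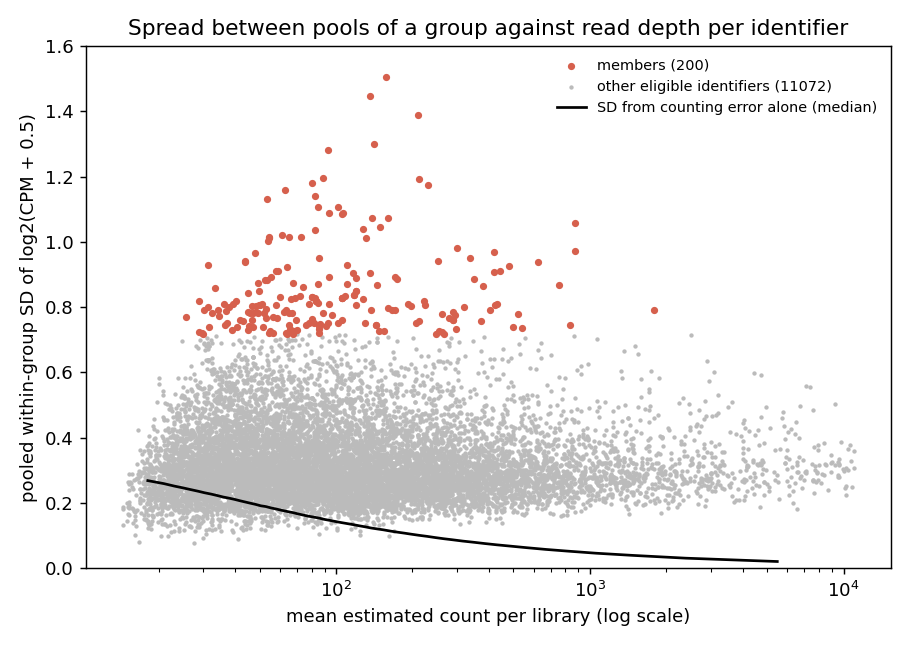
Pooled within-group SD of log2(CPM + 0.5) against the mean estimated count per library (log scale) for the 200 members (red) and the 11072 other eligible identifiers (grey). The black line is the median SD that counting error alone would give, which lies below every member: the member SDs start at 0.72.

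AMEX60DD044122 varied most of all, with a pooled SD of 1.504. It was at 2.97, 36.6 and 16.4 CPM in DMSO proximal pools, at 1.80, 40.1 and 25.3 CPM in DMSO distal pools, at 6.09, 11.8 and 12.8 CPM in 0.1 uM TAL pools, and at 16.0, 10.1 and 4.51 CPM in 1 uM TAL pools, for replicates 1, 2 and 3 in turn. Replicate 1 was the low pool in both vehicle groups, while replicate 2 was the high one, and the lowest and highest DMSO distal pools were 22.2-fold apart. The 2 TAL groups lay within the range of each vehicle group. AMEX60DD050875, second in spread with an SD of 1.45, was at 17.7, 1.44 and 14.1 CPM in DMSO proximal pools, at 53.6, 5.23 and 6.50 CPM in DMSO distal pools, at 6.84, 16.8 and 12.4 CPM in 0.1 uM TAL pools, and at 3.19, 20.3 and 6.29 CPM in 1 uM TAL pools. It had its high pool in DMSO distal replicate 1, where AMEX60DD044122 was lowest. All 4 groups of AMEX60DD050875 overlapped. The rule favours such overlap, since it kept identifiers with close group means and then took the widest spreads.

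The variation was spread unevenly over the libraries. DMSO proximal and DMSO distal pools held 31.6% and 32.0% of the members' summed squared deviations, and 0.1 uM and 1 uM TAL pools 17.9% and 18.6%. Among the other eligible identifiers these shares were 27.0%, 32.6%, 24.2% and 16.2%, in the same order. A member's largest deviation fell in DMSO distal replicate 1 for 42 members (21.0%, against 31.5% of the other eligible identifiers), in DMSO proximal replicate 2 for 39 members (19.5%, against 8.64% of the other eligible identifiers), in DMSO distal replicate 2 for 30 members (15.0%, against 9.62% of the other eligible identifiers) and in DMSO distal replicate 3 for 2 members (1.00%, against 1.04% of the other eligible identifiers). The share was thus lower among members than among the others in DMSO distal replicate 1. It was also lower in 0.1 uM TAL replicate 3, at 13 members (6.5%) against 16.9% of the others. In replicate 2 of both DMSO groups the share was higher among members, and in DMSO distal replicate 3 it was alike. The pool of largest deviation carried a median 32.0% of a member's squared deviations, and more than all other pools together for 9 of 200 members (4.50%). Among the other eligible identifiers the median was 30.9% and the share of identifiers 2.89%.

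Co-variation was measured on the deviations of each member from its group means over the 12 libraries, which leave 8 degrees of freedom. These correlations share libraries and their depth, and are descriptions. Over the 19900 pairs of members, Pearson's r was at least 0.5 in 16.7% and at most -0.5 in 14.8%, with a median of 0.0135. Over pairs of the other eligible identifiers the shares were 44.0% and 1.91%, with a median r of 0.445. Whole libraries were also shifted: the median deviation of the eligible identifiers ran from -0.31 in DMSO distal replicate 1 to 0.25 in DMSO distal replicate 2. The part of this shift in the excess of positive pairs among the others was not tested. Subtracting medians of these same identifiers takes out their shared movement by construction. With these library medians subtracted, r was at least 0.5 in 14.7% of member pairs and 12.9% of other pairs, and at most -0.5 in 12.5% and 12.7%. At these cuts the members were then correlated about as often as the rest, so a high share of such pairs did not mark them.

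An average-linkage tree on 1 - r, cut at height 0.5, put 119 members into 4 modules of at least 10 members, with 48, 30, 24 and 17 members. The other 81 members fell into 19 clusters of 2 to 9 members, 77 in all, and 4 stood alone. The first component of the members' deviations held 39.9% of their variance, the second 15.7% and the third 11.3%. Among the other eligible identifiers the first held 40.9%. With library medians subtracted, it held 40.8% among the members and 28.5% among the others. The others rose less above counting error, so these shares are not like for like. Without that subtraction, the members' first component was lowest in DMSO distal replicate 1 (-11.2). It was highest in DMSO distal replicate 2 (10.5), DMSO proximal replicate 2 (9.42) and 1 uM TAL replicate 1 (7.37). Group means had been removed beforehand, so this axis could not separate the groups. Both of its extremes lay in DMSO distal.

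**Figure D2:**
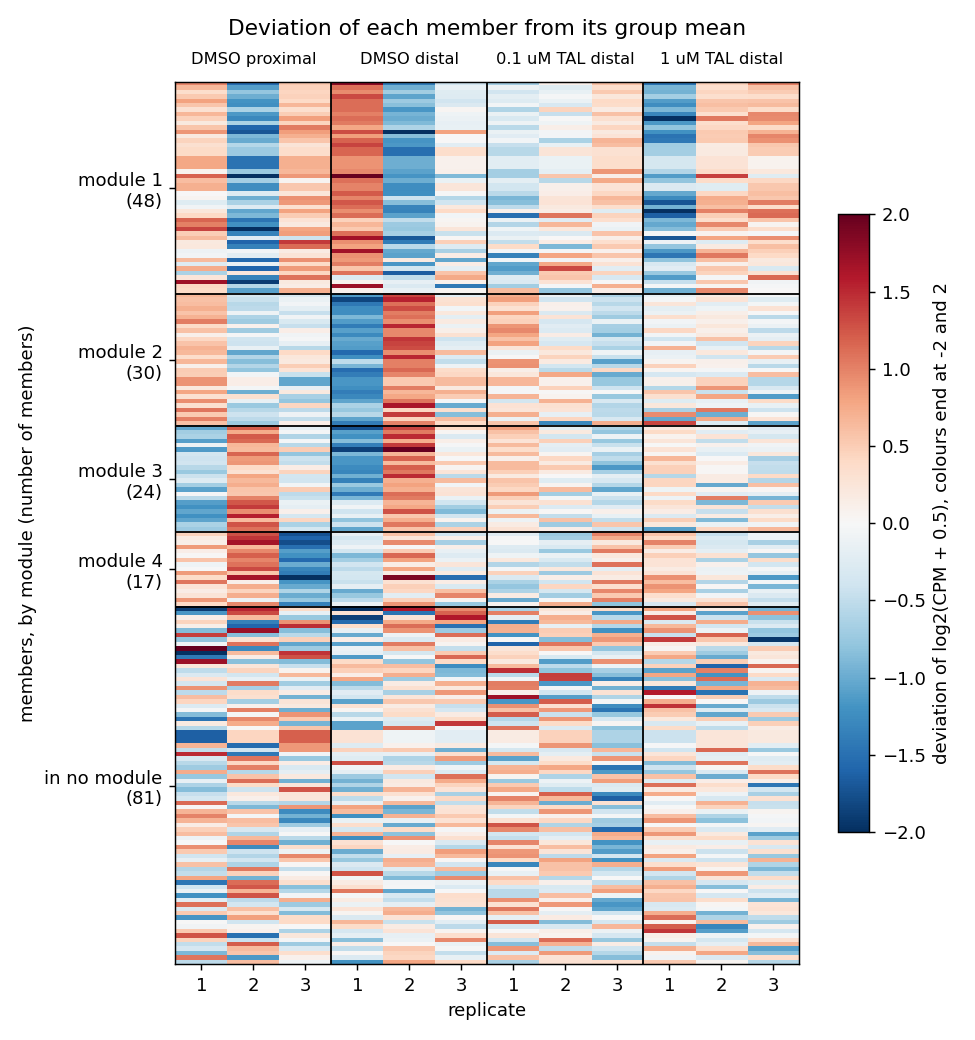
Deviation of log2(CPM + 0.5) of each of the 200 members (rows, ordered by module and by correlation with the module mean) from its group mean in the 12 libraries (columns, by group and replicate); red is above and blue below, and colours end at -2 and 2. Module 1 (48 members) is blue in DMSO proximal replicate 2, DMSO distal replicate 2 and 1 uM TAL replicate 1 and red in DMSO distal replicate 1, whereas modules 2 and 3 are blue in DMSO distal replicate 1 and red in DMSO distal replicate 2.

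Module 1 was the largest, with a median pairwise r of 0.78. Its mean deviation from the group mean, on the log2 scale and for replicates 1, 2 and 3 in turn, was 0.47, -1.04 and 0.56 in DMSO proximal, 1.02, -0.96 and -0.06 in DMSO distal, -0.40, 0.07 and 0.32 in 0.1 uM TAL, and -0.92, 0.45 and 0.48 in 1 uM TAL pools. It was low in 1 pool of each group: 47 of 48 members lay below the group mean in DMSO proximal replicate 2, 47 in DMSO distal replicate 2, 45 in 0.1 uM TAL replicate 1, where the mean deviation was smaller, and 48 in 1 uM TAL replicate 1. Its highest mean deviation was in DMSO distal replicate 1, with 47 of 48 members above the group mean, as many as in DMSO proximal replicate 3, where the mean deviation was smaller. In DMSO proximal replicate 2, DMSO distal replicate 2, 1 uM TAL replicate 1 and DMSO distal replicate 1, the deviations relative to the library medians were -0.98, -1.21, -1.13 and 1.33, so the pattern was as clear without the library shift. In geometric mean CPM + 0.5 the highest pool exceeded the lowest 3.03-fold in DMSO proximal, 3.93-fold in DMSO distal, 1.65-fold in 0.1 uM TAL and 2.63-fold in 1 uM TAL pools.

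AMEX60DD017126, whose deviations followed the module mean most closely (r 0.98), was at 9.81, 1.31 and 7.11 CPM in DMSO proximal pools, at 34.6, 3.33 and 7.13 CPM in DMSO distal pools, at 5.30, 9.42 and 13.4 CPM in 0.1 uM TAL pools, and at 1.55, 7.26 and 10.8 CPM in 1 uM TAL pools. The 2 pools under 2 CPM belonged to different groups and the pool above 30 CPM to DMSO distal. The ranges of all 4 groups overlapped, which the rule favours. AMEX60DD036869 (r 0.98) was at 7.72, 1.94 and 6.69 CPM in DMSO proximal pools, at 16.1, 3.47 and 6.51 CPM in DMSO distal pools, at 6.71, 6.10 and 9.45 CPM in 0.1 uM TAL pools, and at 2.37, 6.32 and 7.61 CPM in 1 uM TAL pools. The same 3 pools were low and the same pool was high. The geometric means of the module, as mean log2 levels, were 3.24 ± 0.90 in DMSO proximal, 3.51 ± 0.99 in DMSO distal, 3.57 ± 0.36 in 0.1 uM TAL and 3.12 ± 0.80 in 1 uM TAL pools (SD, n = 3 each). These means lay within 0.45 of each other, which the rule favours, since it set aside identifiers with distant group means.

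**Figure D3:**
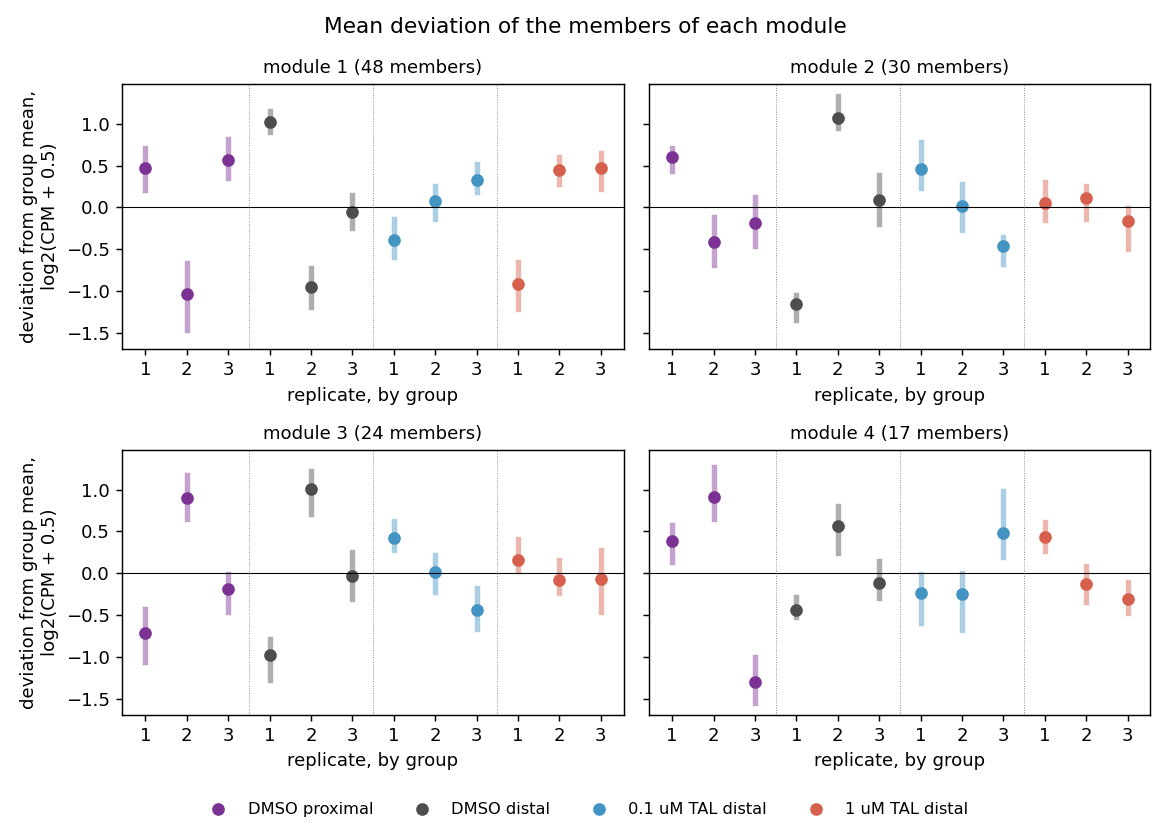
Mean deviation of log2(CPM + 0.5) from the group mean (points) and the middle range of the members, from the 25th to the 75th percentile (bars), for the 4 modules in the 12 libraries. In module 1 the points of DMSO proximal replicate 2 (-1.04), DMSO distal replicate 2 (-0.96) and 1 uM TAL replicate 1 (-0.92) lie together far below 0, and module 4 is lowest in DMSO proximal replicate 3 (-1.30).

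Identifiers that the rule left out moved with module 1. Of 3264 identifiers with the prefix AMEX60DDU and at least 10 counts in every library, 911 (27.9%) had deviations that correlated at 0.8 or more with the module mean, against 35 of 11072 (0.316%) of the other eligible identifiers. With library medians subtracted the numbers were 1207 (37.0%) and 165 (1.49%). These medians are those of the eligible identifiers. They were subtracted from the AMEX60DDU deviations and from the module mean alike, which moves r by itself. The AMEX60DDU identifiers had a library shift of their own, which was not subtracted. Their median deviation ran from -0.38 in DMSO distal replicate 2 to 0.54 in DMSO distal replicate 1. The larger number is thus not agreement free of a library shift. The sets compared are not like for like. The 11072 exclude the members and all that the rule set aside, whereas the AMEX60DDU identifiers passed only the count minimum. Before that subtraction, 16 of the 150 identifiers of highest mean level (10.7%) reached 0.8. Of the 1262 set aside for their group means, 60 (4.75%) did. For modules 2, 3 and 4, 66, 77 and 33 AMEX60DDU identifiers reached 0.8 before that subtraction, and 6, 33 and 23 after it. At r of -0.8 or less, 465 (14.2%) went against module 3, but 152 (4.66%) with library medians subtracted. The share of all counts on AMEX60DDU identifiers was, for replicates 1, 2 and 3, 11.7%, 10.7% and 13.0% in DMSO proximal, 15.9%, 10.005% and 11.8% in DMSO distal, 11.5%, 11.6% and 12.9% in 0.1 uM TAL, and 8.90%, 10.6% and 10.9% in 1 uM TAL libraries. In each of the 4 groups the pool with the lowest module 1 mean also had the lowest such share, and the pool with the highest mean the highest.

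AMEX60DD016881, the identifier of highest mean level and so not a member, had a share of all counts of 3.29%, 0.933% and 3.68% in DMSO proximal, 5.83%, 1.504% and 3.39% in DMSO distal, 2.99%, 3.92% and 5.37% in 0.1 uM TAL, and 0.321%, 3.93% and 3.88% in 1 uM TAL libraries. Its deviations correlated with the module 1 mean at r 0.91, and the lowest pool was the same in 4 of 4 groups and the highest in 3. The number of identifiers with at least 1 count was 45202, 39240 and 44564 in DMSO proximal, 48339, 42017 and 45832 in DMSO distal, 44174, 43762 and 47277 in 0.1 uM TAL, and 42886, 47144 and 46574 in 1 uM TAL libraries. The pool with the fewest was also lowest in module 1 in 3 of 4 groups. By library total the relation was mixed: the pool highest in module 1 was the shallowest in 3 of 4 groups and the deepest in 1. The pool lowest in it was the deepest in 1 of 4 groups and the shallowest in 0. The 150 identifiers of highest mean level took 39.9 to 51.7% of counts, and in 4 of 4 groups the pools with the lowest and the highest such share were those lowest and highest in module 1. What the prefix marks is not given in the sources used here, and the part of these library measures, depth included, in module 1 was not tested.

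**Figure D4:**
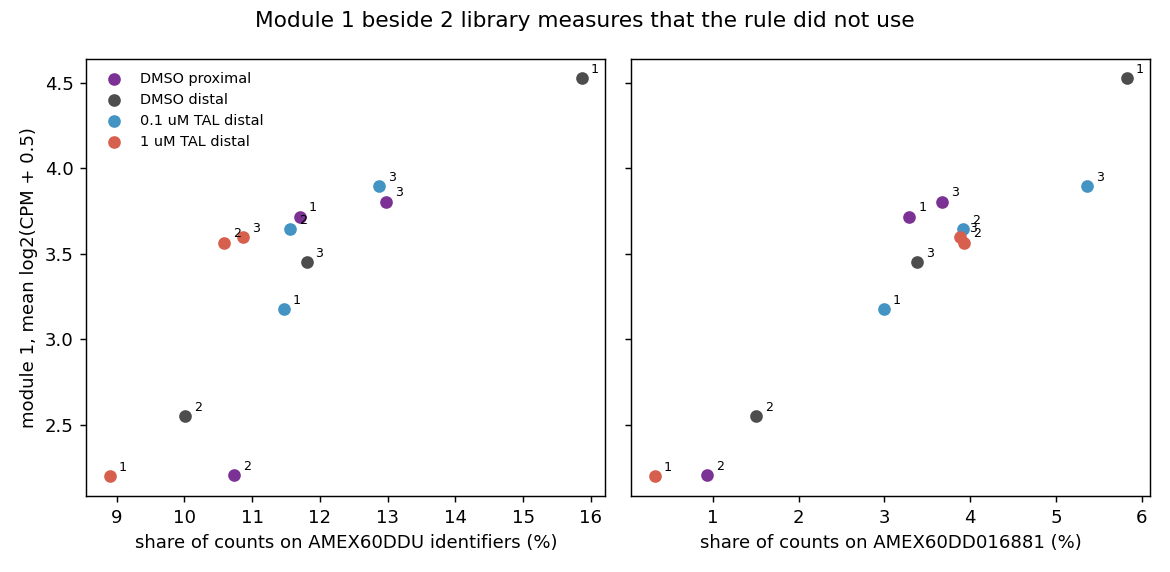
Mean log2(CPM + 0.5) of the 48 members of module 1 in each library against the share of its counts on AMEX60DDU identifiers (left) and on AMEX60DD016881 (right), with points coloured by group and numbered by replicate. The libraries at the lower left are 1 uM TAL replicate 1 (8.90% and 0.321%), DMSO proximal replicate 2 and DMSO distal replicate 2, and DMSO distal replicate 1 (15.9% and 5.83%) is at the upper right.

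Module 2 held 30 members with a median pairwise r of 0.71. Its mean deviation was 0.60, -0.41 and -0.19 in DMSO proximal, -1.15, 1.06 and 0.09 in DMSO distal, 0.45, 0.01 and -0.47 in 0.1 uM TAL, and 0.05, 0.11 and -0.16 in 1 uM TAL pools. All 30 members were below the group mean in DMSO distal replicate 1 and all 30 above it in DMSO distal replicate 2, a 4.66-fold difference in geometric mean, and all 30 were above the group mean in DMSO proximal replicate 1. In 1 uM TAL the highest and lowest pools were 1.21-fold apart. AMEX60DD047676 (r 0.97 with the module mean) was at 30.3, 14.8 and 15.4 CPM in DMSO proximal pools, at 13.1, 75.6 and 25.2 CPM in DMSO distal pools, at 34.6, 18.7 and 13.1 CPM in 0.1 uM TAL pools, and at 27.7, 33.8 and 29.5 CPM in 1 uM TAL pools. Its 3 levels under 1 uM TAL lay close together, inside the wide range of the DMSO distal pools. It was picked as closest to the module mean, so its ranges follow those of the module.

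AMEX60DD056028 (r 0.97) was at 70.1, 33.9 and 42.1 CPM in DMSO proximal pools, at 24.3, 256 and 109 CPM in DMSO distal pools, at 128, 54.5 and 53.5 CPM in 0.1 uM TAL pools, and at 72.9, 89.2 and 62.4 CPM in 1 uM TAL pools, 10.6-fold between the extremes of DMSO distal and 1.43-fold in 1 uM TAL. The mean log2 levels of module 2 were 3.01 ± 0.53 in DMSO proximal, 3.27 ± 1.11 in DMSO distal, 3.06 ± 0.46 in 0.1 uM TAL and 3.35 ± 0.15 in 1 uM TAL pools (SD, n = 3 each). Without DMSO distal the median pairwise r of the same members was 0.50, and without DMSO distal replicate 1 alone it was 0.53. Module 2 was also the one nearest to the library shift. Of the other eligible identifiers 1833 (16.6%) followed it at r of 0.8 or more, but 119 (1.07%) once library medians were subtracted. Relative to those medians, its deviation was still -0.84 in DMSO distal replicate 1 and 0.81 in DMSO distal replicate 2.

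Module 3 held 24 members with a median pairwise r of 0.68. Its mean deviation was -0.71, 0.90 and -0.18 in DMSO proximal, -0.98, 1.01 and -0.03 in DMSO distal, 0.43, 0.01 and -0.44 in 0.1 uM TAL, and 0.15, -0.08 and -0.07 in 1 uM TAL pools. Like module 2 it was low in DMSO distal replicate 1 and high in DMSO distal replicate 2, in all 24 members both times. Relative to the library medians, its deviations there were -0.67 and 0.76. The modules parted in the proximal pools, where module 3 was high in replicate 2 (24 of 24 members above the group mean) and low in replicate 1 (24 of 24 below). The mean profiles of modules 1 and 3 ran against each other, at r -0.89 over the 12 libraries, against -0.47 for modules 1 and 2 and 0.50 for modules 2 and 3. In 1 uM TAL replicate 1 module 1 was at -0.92 and module 3 at only 0.15. Relative to the library median they were at -1.13 and -0.05, so no opposition was seen there.

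AMEX60DD041064 (r 0.97 with the module 3 mean) was at 4.93, 25.4 and 9.36 CPM in DMSO proximal pools, at 2.86, 27.8 and 14.4 CPM in DMSO distal pools, at 25.4, 12.3 and 9.02 CPM in 0.1 uM TAL pools, and at 15.5, 14.4 and 11.7 CPM in 1 uM TAL pools. AMEX60DD001278 (r 0.97) was at 5.26, 15.0 and 8.53 CPM in DMSO proximal pools, at 3.61, 17.6 and 8.54 CPM in DMSO distal pools, at 6.69, 4.98 and 2.30 CPM in 0.1 uM TAL pools, and at 8.35, 5.28 and 5.57 CPM in 1 uM TAL pools. Both were highest in DMSO distal replicate 2. Both had a narrow range under 1 uM TAL, at 1.32-fold and 1.58-fold, against 9.71-fold and 4.87-fold in DMSO distal. They were picked as closest to the module mean, so their ranges follow those of the module. The other eligible identifiers too had their smallest median SD in 1 uM TAL (0.22) and their largest in DMSO distal (0.33). The mean log2 levels of module 3 were 3.05 ± 0.82 in DMSO proximal, 3.09 ± 0.99 in DMSO distal, 3.09 ± 0.43 in 0.1 uM TAL and 2.98 ± 0.13 in 1 uM TAL pools (SD, n = 3 each). In 4 of 4 groups the pool highest in module 3 had the lowest share of counts on AMEX60DDU identifiers. The same held for the 150 identifiers of highest mean level as a sum, and for AMEX60DD016881. The pool lowest in module 3 had the highest share in only 2, 2 and 3 of 4 groups, in the same order. In 1 uM TAL the module spanned only 1.18-fold. Relative to the library medians it was there highest in replicate 3 (0.05). It was lowest in replicate 1 (-0.05), the pool with the lowest shares. The part of these shares in module 3 was not tested. Counted one by one, however, many abundant identifiers moved with this module: 70 of the 150 identifiers of highest mean level (46.7%) correlated with its mean at 0.8 or more, and 71 did with library medians subtracted. Of the other eligible identifiers 893 (8.07%) did so, and 425 (3.84%) with library medians subtracted. For modules 1, 2 and 4 the number was 16, 14 and 17 of 150, and 16, 0 and 17 with library medians subtracted. At r of -0.8 or less, 84 of the 150 went against module 1, but 3 with library medians subtracted. Of the other eligible identifiers 1208 (10.9%) did so, and 85 (0.768%) with library medians subtracted. Higher counts carry less counting error, so shares among the 150 and among the others are not like for like.

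**Figure D5:**
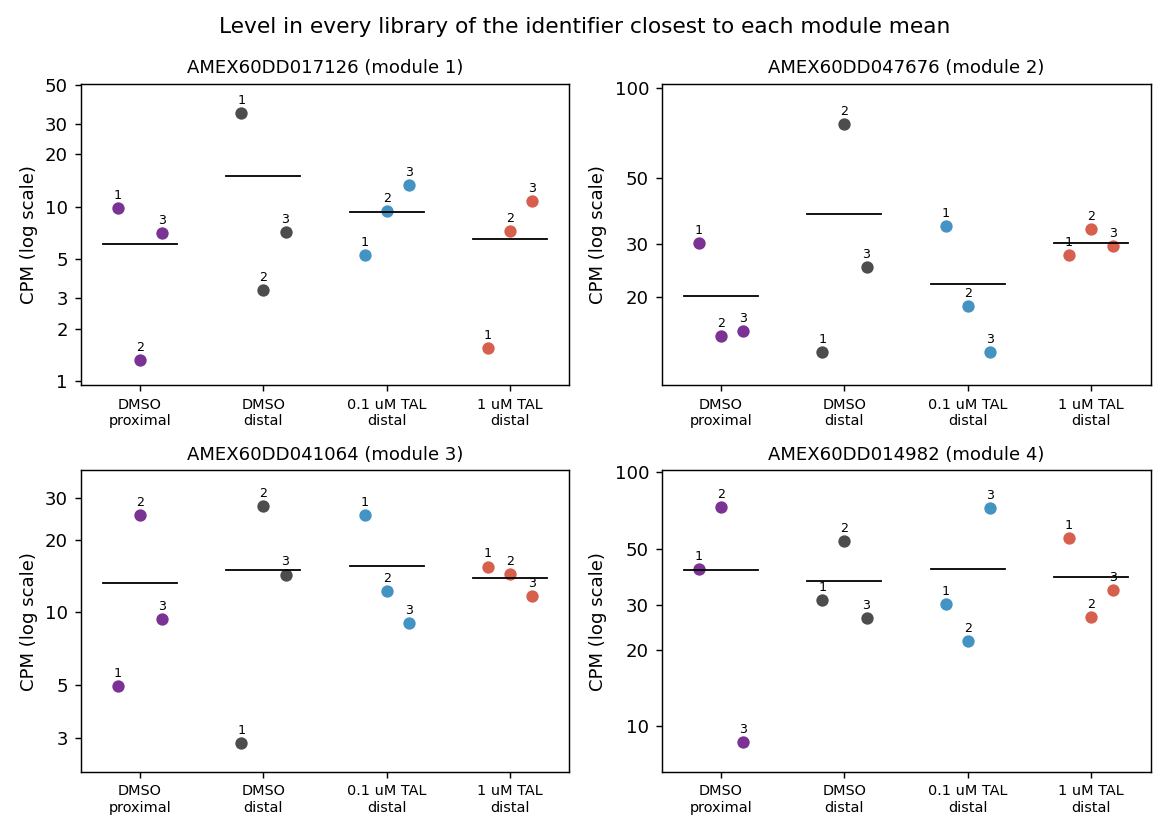
CPM (log scale) in every library, by group, of the identifier whose deviations lie closest to each module mean; points carry the replicate number and lines are group means. For AMEX60DD017126 the 3 DMSO distal pools run from 3.33 to 34.6 CPM. In each panel the groups overlap, which the rule favours.

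Module 4 held 17 members with a median pairwise r of 0.68. Its mean deviation was 0.38, 0.92 and -1.30 in DMSO proximal, -0.44, 0.56 and -0.12 in DMSO distal, -0.23, -0.25 and 0.48 in 0.1 uM TAL, and 0.44, -0.13 and -0.31 in 1 uM TAL pools. It varied most in the proximal pools, where the highest and lowest were 4.65-fold apart. The distance was 2.01-fold in DMSO distal, 1.66-fold in 0.1 uM TAL and 1.68-fold in 1 uM TAL pools. All 17 members were below the group mean in DMSO proximal replicate 3, as in DMSO distal replicate 1. Relative to the library medians, however, the module's deviation was -1.26 in DMSO proximal replicate 3 and only -0.13 in DMSO distal replicate 1. Without DMSO proximal replicate 3 the median pairwise r was 0.47. AMEX60DD014982 (r 0.95) was at 41.8, 73.2 and 8.66 CPM in DMSO proximal pools, at 31.5, 53.4 and 26.8 CPM in DMSO distal pools, at 30.3, 21.6 and 72.4 CPM in 0.1 uM TAL pools, and at 55.3, 26.8 and 34.4 CPM in 1 uM TAL pools. AMEX60DD011884 (r 0.94) was at 5.70, 14.2 and 1.30 CPM in DMSO proximal pools, at 6.95, 10.8 and 9.94 CPM in DMSO distal pools, at 8.13, 5.05 and 14.2 CPM in 0.1 uM TAL pools, and at 9.003, 5.43 and 6.27 CPM in 1 uM TAL pools. In both the low outlying pool was DMSO proximal replicate 3. The distal pools of the 3 treatments overlapped, which the rule favours.

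Module 4 was also the one most shared with identifiers set aside for differing group means: 268 of these 1262 (21.2%) had deviations that correlated with its mean at 0.8 or more, against 60, 53 and 34 for modules 1, 2 and 3. With library medians subtracted the number for module 4 was 243. The mean log2 levels of module 4 were 3.41 ± 1.16 in DMSO proximal, 3.61 ± 0.51 in DMSO distal, 3.57 ± 0.42 in 0.1 uM TAL and 3.78 ± 0.39 in 1 uM TAL pools (SD, n = 3 each). Its lowest pool was the shallowest library of the group in 4 of 4 groups. Relative to the library medians this did not hold in DMSO distal or 0.1 uM TAL. There it was lowest in DMSO distal replicate 3 (-0.19, against -0.13 in replicate 1). In 0.1 uM TAL it was lowest in replicate 1 (-0.38, against -0.30 in replicate 2). The lowest pools of DMSO proximal and 1 uM TAL stayed the same. The part of depth in module 4 was not tested.

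Some members cannot be told apart in the table. Of the 200, 12 had the same estimated count as another member in all 12 libraries, in 5 sets of up to 3, so the members held 193 distinct sets of values. Counting every identifier in the table as a possible partner, 13 members (6.50%) shared all their values with another, against 52 of 11072 other eligible identifiers (0.470%). Salmon splits reads that fit several transcripts equally well, so identical values are uncertain as measurements of single genes. Module 1 held 44 distinct sets in its 48 members, module 2 held 29 in 30, and modules 3 and 4 held no repeats.

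Some members with neighbouring identifier numbers moved together, though the files give no positions and the numbers are only names here. Within 10 numbers of each other lay 11 pairs of members, of which 6 had r of at least 0.9 and 1 of these had identical values. The pairs are not separate: AMEX60DD041056, AMEX60DD041058 and AMEX60DD041064 of module 3 gave those at r 0.921, 0.904 and 0.903. The share of all member pairs at r of 0.9 or more is not given here, so 6 of 11 has no background. Both pairs of consecutive numbers were in module 1: AMEX60DD045190 and AMEX60DD045191 at r 0.96, and AMEX60DD038818 and AMEX60DD038819 at r 0.95. AMEX60DD045190 was at 14.9, 12.9 and 19.6 CPM in DMSO proximal pools, at 26.1, 4.39 and 13.7 CPM in DMSO distal pools, at 11.1, 18.4 and 20.4 CPM in 0.1 uM TAL pools, and at 8.56, 25.9 and 21.8 CPM in 1 uM TAL pools. AMEX60DD045191 was at 6.70, 3.27 and 6.91 CPM in DMSO proximal pools, at 12.1, 2.10 and 5.51 CPM in DMSO distal pools, at 3.91, 8.54 and 6.95 CPM in 0.1 uM TAL pools, and at 2.71, 8.12 and 7.25 CPM in 1 uM TAL pools. Both were highest in DMSO distal replicate 1 and lowest in DMSO distal replicate 2.

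AMEX60DD038818 was at 8.75, 4.75 and 10.5 CPM in DMSO proximal pools, at 21.6, 5.29 and 9.05 CPM in DMSO distal pools, at 11.97, 12.2 and 14.7 CPM in 0.1 uM TAL pools, and at 3.10, 9.65 and 13.3 CPM in 1 uM TAL pools. AMEX60DD038819 was at 6.37, 2.65 and 6.78 CPM in DMSO proximal pools, at 13.7, 4.02 and 5.70 CPM in DMSO distal pools, at 5.95, 7.06 and 11.6 CPM in 0.1 uM TAL pools, and at 2.22, 6.53 and 6.95 CPM in 1 uM TAL pools. This pair too was highest in DMSO distal replicate 1, and lowest in 1 uM TAL replicate 1. Of the 11 member pairs within 10 numbers, AMEX60DD003307 of module 1 and AMEX60DD003316 of module 3 ran most against each other. They lay 9 numbers apart with r -0.96 and were picked out after their values were seen. Over all pairs between modules 1 and 3 the lowest r was -0.98. AMEX60DD003307 was at 4.78, 2.36 and 4.54 CPM in DMSO proximal pools, at 10.1, 1.36 and 3.08 CPM in DMSO distal pools, at 1.23, 1.63 and 3.12 CPM in 0.1 uM TAL pools, and at 0.866, 1.98 and 2.74 CPM in 1 uM TAL pools. AMEX60DD003316 was at 8.25, 20.6 and 8.14 CPM in DMSO proximal pools, at 3.20, 18.5 and 7.75 CPM in DMSO distal pools, at 10.3, 12.9 and 6.58 CPM in 0.1 uM TAL pools, and at 19.7, 12.3 and 7.55 CPM in 1 uM TAL pools. In all groups but 0.1 uM TAL, the pool lowest in AMEX60DD003307 was the pool highest in AMEX60DD003316.

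The members were then looked up in the group comparisons, which used edgeR's quasi-likelihood test on all 41884 identifiers that passed its low-count filter, with Benjamini-Hochberg adjustment. The rule kept only identifiers with close group means, so nothing is read from these counts. All 3 comparisons share the DMSO distal libraries. Between 1 uM TAL and DMSO distal, 0 of 200 members had an adjusted p under 0.05, where 0.0239% of all tested identifiers did, and 0 had an unadjusted p under 0.05. Between 0.1 uM TAL and DMSO distal the edgeR count was 0 members, against a background of 0%, with 0 0 unadjusted. Between DMSO proximal and DMSO distal it was 0 members, against 0.0119%, with 0 unadjusted. The DESeq2 Wald test also called 0 members in each comparison, with 2, 1 and 3 at an unadjusted p under 0.05, in the order 1 uM TAL, 0.1 uM TAL and DMSO proximal. Of all tested identifiers, edgeR gave 2005, 1353 and 2659 of 41884 an unadjusted p under 0.05. DESeq2 gave 69803 a p-value, of which 2982, 2004 and 3953 were under 0.05 without adjustment, and it called 444, 150 and 477. Its default filter can leave low-count identifiers without an adjusted p. The number that kept one is not given here, so 69803 is no background for these calls.

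In 1 uM TAL against DMSO distal the members' log2 fold changes ran from -1.66 to 1.04 with a median of -0.17. Their median standard error was 0.66, against 0.81 over all tested identifiers. Many of the 41884 tested identifiers lacked the 10 counts in every library that the members had to reach, so these medians are not like for like. In 0.1 uM TAL against DMSO distal the members' fold changes ran from -1.32 to 1.02 with a median of -0.03. In DMSO proximal against DMSO distal they ran from -1.58 to 1.26 with a median of -0.13. The lowest edgeR adjusted p of a member was 0.881 for 1 uM TAL, 1 for 0.1 uM TAL and 0.704 for DMSO proximal pools. Over all tested identifiers the median log2 fold changes were -0.04, -0.01 and -0.06 in the same order.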

How the data were processed

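The authors deposited 1 gene-level matrix of salmon output, whose values are estimated counts, per the file headers. Trimmomatic 0.38 and Salmon 0.13.1 are named in the submitters' processing notes; the index, annotation and filters are not given in the sources used here. Of values above 0, 0.976% lay within 0.005 of a whole number, so the values are not read tallies. Columns were matched to samples by title, and 3 further sample columns, which no title matched, were left out.

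CPM used the total over all identifiers. Deviations from group means gave the SD, Pearson correlations, components and the tree (Python 3.11.15, numpy 2.4.6, scipy 1.17.1). Modules need at least 10 members. The identifiers named were the 2 of largest SD, the 2 closest to each module mean, those on either side of the limit and the pairs with consecutive numbers. Outside that rule, AMEX60DD016881, AMEX60DD041056, AMEX60DD041058 and the pair AMEX60DD003307 and AMEX60DD003316 were named after their values were seen. Rounded counts were filtered with filterByExpr, scaled by TMM and tested with edgeR 4.0.16 in 1 fit of all 12 libraries without a replicate block; DESeq2 1.42.0 was an alternative (R 4.3.3). Both steps were tested on simulated data. The simulated modules lay in well-counted identifiers, with large spreads and no library shift. The simulated group changes were large and lay in identifiers of below-median dispersion. These runs check the code and cannot show how either step does on members of low count. The members, lists and tests were chosen with earlier results of these data known.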

Additional observations from a re-analysis of the deposited data

How the results depend on the processing

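Which identifiers entered the 200 depended on the processing. Applied again, the rule took 171 of the 200 with TMM factors, 149 with DESeq2 size factors, 144 with library medians subtracted (chosen after seeing the data), 127 with a pseudocount of 2, 45 with at least 50 counts in every library and 3 without a count filter. The median SD was 0.72 with a pseudocount of 2, 0.61 at 50 counts and 1.58 unfiltered, the share of pairs at r of 0.5 or more was 23.2% at 50 counts and 9.29% unfiltered, and the first component held 34.3% and 21.6%. The largest module had 16 members unfiltered, and 42 to 54 under the other settings that kept all 12 libraries. Leaving out each library in turn gave 125 to 168 of the 200 again, a median SD of 0.77 to 0.87, a pair share of 15.5 to 24.7%, a first component of 28.1% (without DMSO distal replicate 2) to 52.2% (without 1 uM TAL replicate 1) and a largest module of 36 to 85 members, the last without 1 uM TAL replicate 1. That module was often another one: it held 0 members of module 1 at 50 counts, unfiltered, and without 1 uM TAL replicate 3, DMSO distal replicate 2 or DMSO proximal replicate 1, 2 or 3. Module 1 members that still fell in a single cluster then numbered 10 at 50 counts and 11 (without DMSO distal replicate 2) to 31 (without DMSO proximal replicate 3) in these leave-outs. The lists under these settings hold other identifiers. With the members kept and each library left out, the median pairwise r of module 1 was 0.74 to 0.81 and of module 2 0.53 to 0.74. For module 3 it was 0.59 to 0.75 and for module 4 0.47 to 0.73 (added after seeing the data). The modules were formed by high r over these same libraries, so these ranges cannot show that the modules are stable. With identical value sets counted once, also added later, the largest module had 44 members. The number of members called between groups was 0 to 0 when each library was left out, and 0 in all 48 alternatives, with 0 to 15 members under 0.05 without adjustment. Under the replicate block, the median SD was 0.84, the pair share 20.2% and the largest module 50 members. The number called there was 0 in each comparison. Over the 41884 tested identifiers, the mean correlation between deviations of libraries with one number was -0.00448. The range was -0.232 to 0.215 over 18 such pairs. That mean covers all tested identifiers, so it cannot show what a shared number stands for among the members. Their first component was below 0 in replicate 1 and above 0 in replicate 2 of both DMSO groups, and the other way round in both TAL groups. In 0.1 uM TAL replicate 2 it was only -0.38, so the sign there carries little. Whether a shared number means a shared tank or day was not tested. The cause of the changes between settings was not tested either. With 3 pools per group, single pools can decide a pattern.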
